A study of Mus musculus with 6 samples.

Results

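Interferon-stimulated genes were followed in hematopoietic stem cells (HSCs) of the mouse fetal liver, in controls and in a knockout of the gene Dpy30. Dpy30 encodes a shared subunit of the enzyme complexes that methylate histone H3 at lysine 4. The genes are a list of 37 symbols known as interferon-stimulated, taken by name and not by a threshold on these data. This list and the others below were chosen with earlier results of these data known. Counts set beside those of all genes therefore describe the lists and are not independent tests of them. All 37 genes were found among the 38926 genes of the deposited counts. Of these 37, 33 passed the filter on low counts and were tested, among 13646 genes in all. Ifit3, Zbp1, Mx1 and Ifi27l2a did not pass and are given as counts.

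HSCs were sorted by surface markers from E14.5 embryos, and poly(A) RNA was sequenced. Every embryo carried Vav-Cre, a Cre recombinase transgene driven in blood-forming cells. The 3 controls also carried 1 floxed and 1 intact Dpy30 allele (labelled Vav-Cre; Dpy30F/+), and the 3 knockouts 1 floxed and 1 null allele (Vav-Cre; Dpy30F/-). The reference is thus a cell that can keep 1 working copy, not a wild-type cell. Each of 3 litters gave 1 sample of each genotype, so the comparison was made over all 6 samples and within each litter. The labels do not say whether a sample was 1 embryo or several.

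Type I interferons bind a receptor made of Ifnar1 and Ifnar2, and the kinases Jak1 and Tyk2 then pass the signal on to ISGF3. ISGF3 is a transcription factor complex that holds Stat2 and Irf9 and binds the interferon-stimulated response element (ISRE) near its target genes. The targets include sensors of foreign RNA and DNA, enzymes that degrade or block viral RNA, and the transcription factors that keep the response going. Interferon gamma has a receptor of its own and induces GTPases and antigen presentation genes. In HSCs, acute interferon is known to bring quiescent cells into cycle.

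Gene counts per library came to 31897700 to 43394700, and 13972 to 17241 genes had at least 1 count. Mitochondrial genes took 54.4% to 67.7% of the gene counts in controls and 49.2% to 55.7% in knockouts. Dpy30 had 712 to 1395 counts in the controls and 216 to 478 in the knockouts. Scaled for library size, its knockout mean was 0.342 of the control mean, so Dpy30 RNA was reduced and not absent. The spread between replicates was wide, with a biological coefficient of variation (the spread beyond counting error) of 0.598 in controls and 0.997 in knockouts. The 14 HSC markers on a list of cell type markers had a summed level of 958 to 1037 CPM (counts per 1000000) in controls and 676 to 1295 CPM in knockouts. Knockout 3 was the lowest library for Hlf, an HSC transcription factor, at 27.2 CPM against 146 to 230 CPM in the other five. These are bulk libraries, and fewer cells of a type and less RNA per cell cannot be told apart.

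Most interferon-stimulated genes had higher levels in the knockouts than in the controls, but no single gene passed the main test. Of the 33 tested, 31 had a positive log2 fold change (knockout over control), against 50.8% of all genes tested. Their median log2 fold change was 0.95, and it was 0.01 over all genes tested. Without knockout 3 the median was 0.73 (30 of 34 positive), without knockout 2 it was 1.29 (34 of 37) and without control 2 it was 1.59 (36 of 37). At least 2-fold higher were 15 members, where the background was 13.5%, and 0 members were at least 2-fold lower, where it was 12.9%. In 10 members every knockout lay above every control, against 6.39% of all genes tested, and in 0 members every knockout lay below, against 7.74%. The members furthest up were the oligoadenylate synthetase genes Oas3, Oas2 and Oasl2, the antiviral enzyme gene Rsad2 and the poorly counted Ifi44.

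**Figure D1:**
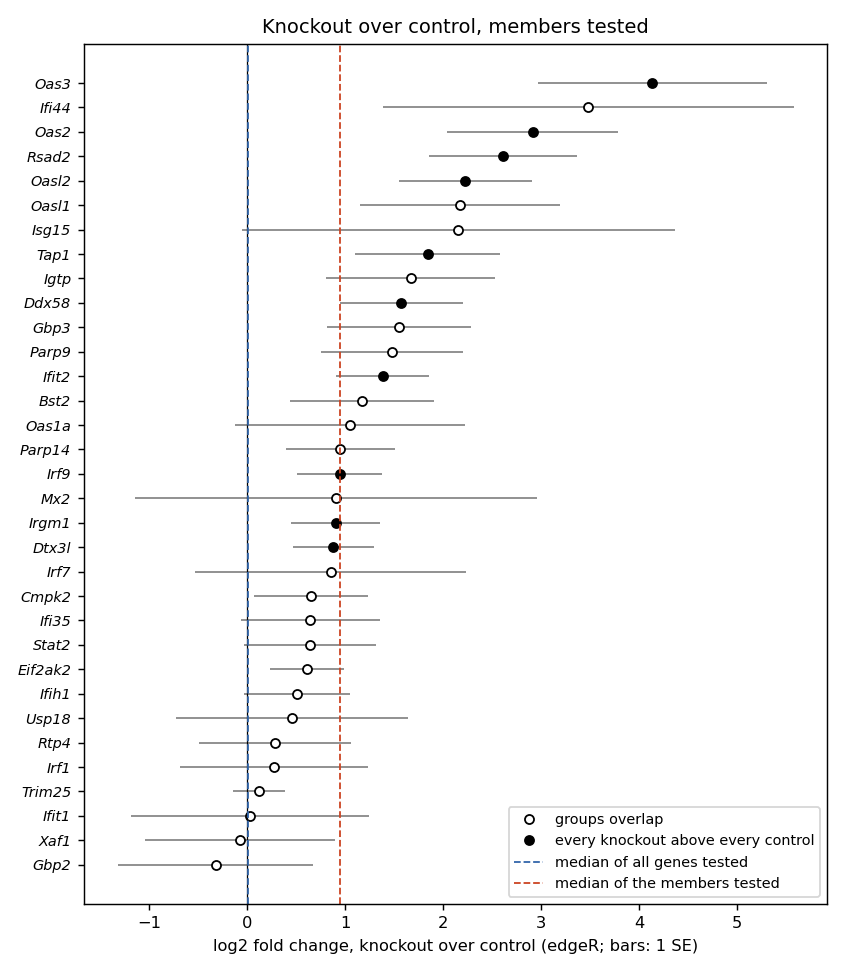
Log2 fold change of each tested interferon-stimulated gene (x axis, edgeR; bars are 1 SE), in order of size. Filled points mark the 10 genes whose knockout values all lie above the control values; 31 of 33 points lie right of 0, and the dashed lines mark the medians of 0.95 for the members and 0.01 for all genes tested.

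In edgeR's quasi-likelihood test, 0 members had a Benjamini-Hochberg adjusted p under 0.05 (0% of all genes tested in either direction), and the smallest adjusted p of a member was 0.663. At an unadjusted p under 0.05 there were 7 members, all higher in the knockout (background 4.26%): Ddx58, Ifit2, Oas2, Oas3, Oasl2, Rsad2 and Tap1. The number was 4 without control 1 and 12 without knockout 2. With litter as a block it was 3 (Oas2, Oasl2 and Rsad2; background 2.73%), again with 0 past the threshold. DESeq2, another count test, called 3 members higher at an adjusted p under 0.05 (background 0.762%), Oas3, Oas2 and Rsad2. With the litter block it called Oasl2 and Rsad2 (background 1.11%). Dpy30 itself was not called in edgeR (log2 fold change -1.55, SE 0.46; unadjusted p = 0.0102, adjusted p = 0.672). Nor was it called by DESeq2 (adjusted p = 0.126, and 0.0993 with the litter block).

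Within litters, 30 of 33 members were higher in the knockout of litter 1 (background 50.9%), 20 in litter 2 (46.9%) and 27 in litter 3 (44.5%). The median difference in log2 CPM was 1.30, 0.31 and 1.24 in litters 1 to 3, against 0.02, -0.08 and -0.17 over all genes tested. The difference was smallest in litter 2. All 3 litters agreed on a higher knockout for 15 members (background 12.3%), among them Irf9, Eif2ak2, Bst2 and Irgm1. Another 10 were higher in litters 1 and 3 and lower in litter 2 (background 12.5%), among them Stat2, Irf7, Isg15, Usp18, Parp9 and Parp14. Gbp2 was the 1 member lower in all 3 (background 15.9%).

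**Figure D2:**
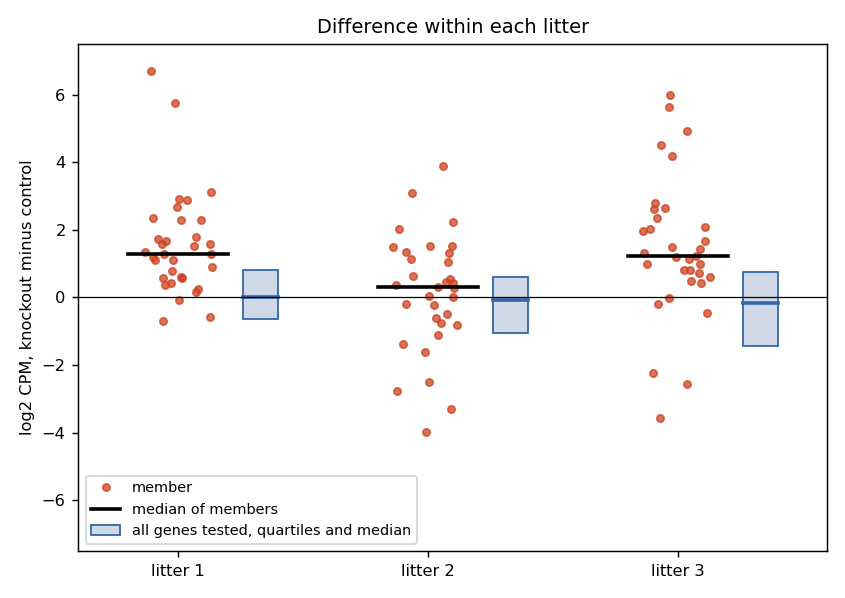
Difference in log2 CPM, knockout minus control, within each litter (y axis); each point is 1 of the 33 tested members, black bars are their medians, and blue boxes are the quartiles and median of all 13646 genes tested. The member medians are 1.30, 0.31 and 1.24, and litter 2 holds members on both sides of 0.

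The ISRE is the shared binding site of ISGF3, and it can be read in the promoters of the members. RefSeq windows on GRCm38.p6 were found for 28 of the 37 members. The ISRE was searched as GAAA, any 2 bases and GAAA, on both strands in the 250 bases before each RefSeq start, and matches may overlap each other. It was present for 12 of the 28 members (42.9%), against 3.46% of all genes with such windows, and per window in 37.5% of the members' and 2.98% of all. The windows of Oas3 and Rsad2, which had among the largest log2 fold changes, and of Ifit1 and Isg15, whose groups overlapped, are shown as stretches of 60 bases, with the ISRE matches in capitals, 5′ to 3′ on the strand of the gene.
Oas3 (chr5:120777700-120777759, minus strand): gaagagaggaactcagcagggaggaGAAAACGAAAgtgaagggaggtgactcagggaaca
Rsad2 (chr12:26456538-26456597, minus strand): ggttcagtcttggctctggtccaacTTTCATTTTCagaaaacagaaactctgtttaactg
Ifit1 (chr19:34640779-34640838, plus strand): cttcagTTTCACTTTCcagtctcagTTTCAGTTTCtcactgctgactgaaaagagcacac
Isg15 (chr4:156200856-156200915, minus strand): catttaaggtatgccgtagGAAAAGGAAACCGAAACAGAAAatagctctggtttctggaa

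Ifit1 and Isg15 had more matches than Oas3 or Rsad2, 2 and 3 against 1 each. Of the tested members with a window, the 11 with a match had a median log2 fold change of 1.17, from -0.32 for Gbp2 to 4.14 for Oas3, and the 16 without one had 0.87, from -0.07 for Xaf1 to 3.48 for Ifi44. These ranges overlapped. Every knockout was above every control for 3 of the 11 and for 6 of the 16, where the background was 6.39%. The gamma-activated site, a promoter element of the interferon gamma response, was searched as TTC, any 3 bases and GAA, and was in the windows of 6 members (21.4%; 8.13% of all genes), Irf1, Ifit2, Eif2ak2, Bst2, Igtp and Oas1a. These 6 had a median log2 fold change of 1.11. A match describes these letters and is not evidence of binding.

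All 4 transcription factors among the members had a positive log2 fold change (median 0.75), and 0 of these 4 had an edgeR unadjusted p under 0.05. Irf9, the DNA-binding part of ISGF3, was at 8.77, 16.6 and 9.82 CPM in controls 1 to 3 and 20.2, 24.4 and 23.3 CPM in knockouts 1 to 3. The knockouts stood close together and all above the controls, with a log2 fold change of 0.95 (SE 0.44; edgeR unadjusted p = 0.0615, adjusted p = 0.775). The annotated Irf9 gene overlaps Rnf31 on the same strand, and an effect of this on the counts was not tested. Levels of Stat2, the partner of Irf9, overlapped between genotypes. They were 5.15, 28.8 and 16.8 CPM in the controls and 13.0, 24.6 and 41.6 CPM in the knockouts (log2 fold change 0.64, SE 0.68). Irf7, the factor that amplifies type I interferon production, was at 0.380, 1.98 and 2.84 CPM in the controls and 1.33, 0.303 and 7.77 CPM in the knockouts. Its highest and its lowest values were both in knockouts, and its log2 fold change of 0.85 (SE 1.39) became -1.06 without knockout 3. Irf1, a transcription factor induced early by interferon, was at 6.46, 2.51 and 4.81 CPM in the controls and 8.33, 7.39 and 0.971 CPM in the knockouts. Knockouts 1 and 2 were above all controls and knockout 3 was below them, and the log2 fold change was 0.28 (SE 0.96), turning to -0.052 with litter as a block, -0.039 by limma-voom, -0.13 without knockout 1 and just under 0 without control 2.

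Of 5 sensors and their regulators, 4 were tested and all 4 had a positive log2 fold change (median 0.56). Ddx58 and Ifih1 encode the RNA helicases RIG-I and MDA5. Ddx58 was at 12.9, 17.5 and 14.7 CPM in controls and 24.4, 17.6 and 92.5 CPM in knockouts. The genotypes did not overlap, but knockout 2 exceeded control 2 only marginally. The log2 fold change was 1.57 (SE 0.63; edgeR unadjusted p = 0.0363, adjusted p = 0.753) and 0.49 without knockout 3. Ifih1 ranged from 14.47 to 31.5 CPM in controls and from 14.2 to 53.7 CPM in knockouts, with knockout 2 the lowest library. Trim25, the ubiquitin ligase that acts on RIG-I, was at 219, 139 and 150 CPM in controls and 146, 180 and 227 CPM in knockouts. Those groups overlapped, with a log2 fold change of 0.13 (SE 0.27), which was -0.0098 under upper-quartile scaling and -0.040 without knockout 3. Eif2ak2 encodes the kinase PKR, which stops translation on binding double-stranded RNA, and was higher in the knockout of each litter. It ranged from 36.5 to 72.1 CPM in controls and from 54.1 to 117 CPM in knockouts (log2 fold change 0.61, SE 0.38). Zbp1, a sensor of Z-form nucleic acid, had 0, 8 and 0 counts in controls and 13, 0 and 133 in knockouts.

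The IFIT and OAS families had the highest median of the 7 roles, where the 7 tested members were all positive (median log2 fold change 2.171) and 4 had every knockout above every control (background 6.39%). IFIT proteins bind foreign RNA at its 5′ end. Ifit2 was at 6.39, 6.15 and 8.07 CPM in controls and 22.3, 15.3 and 16.2 CPM in knockouts. Every knockout was well above every control, and the range was 1.19 to 1.51 when single samples were left out (log2 fold change 1.38, SE 0.47; edgeR unadjusted p = 0.0191, adjusted p = 0.721). Its family member Ifit1 did not share it, at 0.311, 4.95 and 1.134 CPM in controls and 1.81, 2.81 and 1.91 CPM in knockouts. Control 2 was the highest library and control 1 the lowest, and the log2 fold change of 0.03 (SE 1.21) was -0.076 under upper-quartile scaling and between -0.48 and 1.59 when single samples were left out. Ifit3 had 0, 0 and 2 counts in controls and 26, 0 and 369 in knockouts, so that it was plainly detected in knockouts 1 and 3 and not in knockout 2. A count of 0 allows up to 3 counts, or 0.0680 to 0.104 CPM in these libraries, counting error only.

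The oligoadenylate synthetases make the signal that activates RNase L. Oas2 (chr5:120730333-120749853) and Oas3 (chr5:120753098-120777661) are neighbours on the minus strand, and Oasl2 (chr5:114896936-114912234) lies on the plus strand of the same chromosome (GRCm38, whole genes). Oas2 was at 0.898, 0.562 and 1.497 CPM in controls and 7.15, 9.01 and 6.23 CPM in knockouts. All 3 knockouts were several-fold above all 3 controls, and the log2 fold change of 2.91 (SE 0.87; edgeR unadjusted p = 0.0101, adjusted p = 0.672; DESeq2 adjusted p = 0.0307) stayed between 2.64 and 3.35 when single samples were left out. Oas3 was at 0.932, 0.9896 and 0.703 CPM in controls and 7.25, 1.57 and 37.5 CPM in knockouts. Its controls agreed closely and its knockouts did not, with knockout 3 far above knockout 2. The log2 fold change was 4.14 (SE 1.17; edgeR unadjusted p = 0.00763, adjusted p = 0.663; DESeq2 adjusted p = 0.00742) and 2.34 without knockout 3. Oasl2, a synthetase-like protein, was at 10.3, 16.6 and 3.06 CPM in controls and 22.4, 46.9 and 71.0 CPM in knockouts. The groups did not overlap (log2 fold change 2.23, SE 0.68; edgeR unadjusted p = 0.0109, adjusted p = 0.672; DESeq2 adjusted p = 0.0518, and 0.0267 with the litter block). Oasl1, which lies beside Oasl2, was within 1.86 to 2.20 CPM in controls and at 1.132, 17.5 and 8.77 CPM in knockouts, so knockout 1 was the lowest of the 6 libraries. Oas1a was higher in the knockout of each litter but overlapped, at 0.553 to 4.04 CPM in controls and 1.69 to 8.49 CPM in knockouts, and its log2 fold change of 1.05 (SE 1.17) was -0.093 without knockout 2. Oas1a has near-identical neighbours, so its reads may be under-counted.

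The 4 tested of 5 other antiviral effectors all had a positive log2 fold change (median 1.04). Rsad2 encodes viperin, an enzyme that makes a chain-terminating nucleotide, and Cmpk2 is its genomic neighbour and supplies the substrate (Rsad2 is at chr12:26442746-26456452, minus strand). Rsad2 was at 2.59, 5.99 and 1.77 CPM in controls and 23.05, 7.44 and 32.9 CPM in knockouts. Knockout 2 was just above control 2, and the others were far above theirs (log2 fold change 2.61, SE 0.76; edgeR unadjusted p = 0.00867, adjusted p = 0.672; DESeq2 adjusted p = 0.0380). Cmpk2 did not follow it in litter 3, at 6.34 to 9.77 CPM in controls and 14.9, 18.1 and 6.51 CPM in knockouts. Bst2, or tetherin, which holds budding virus at the cell surface, was at 2.73, 5.27 and 12.6 CPM in controls and 8.30, 13.3 and 24.85 CPM in knockouts. Each knockout was above the control of its own litter, and the groups overlapped (log2 fold change 1.17, SE 0.73; edgeR unadjusted p = 0.147). The dynamin-like GTPase genes Mx1 and Mx2 were counted mainly in 1 knockout. Mx1 had 0, 6 and 34 counts in controls and 234, 0 and 0 in knockouts, and Mx2 had 0, 43 and 26 counts in controls and 114, 15 and 0 in knockouts. The log2 fold change of Mx2, 0.91 (SE 2.05), was -1.13 with litter as a block and -1.46 without knockout 1. The annotation lists Mx2 as a polymorphic pseudogene, and the strain was not in the labels.

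**Figure D3:**
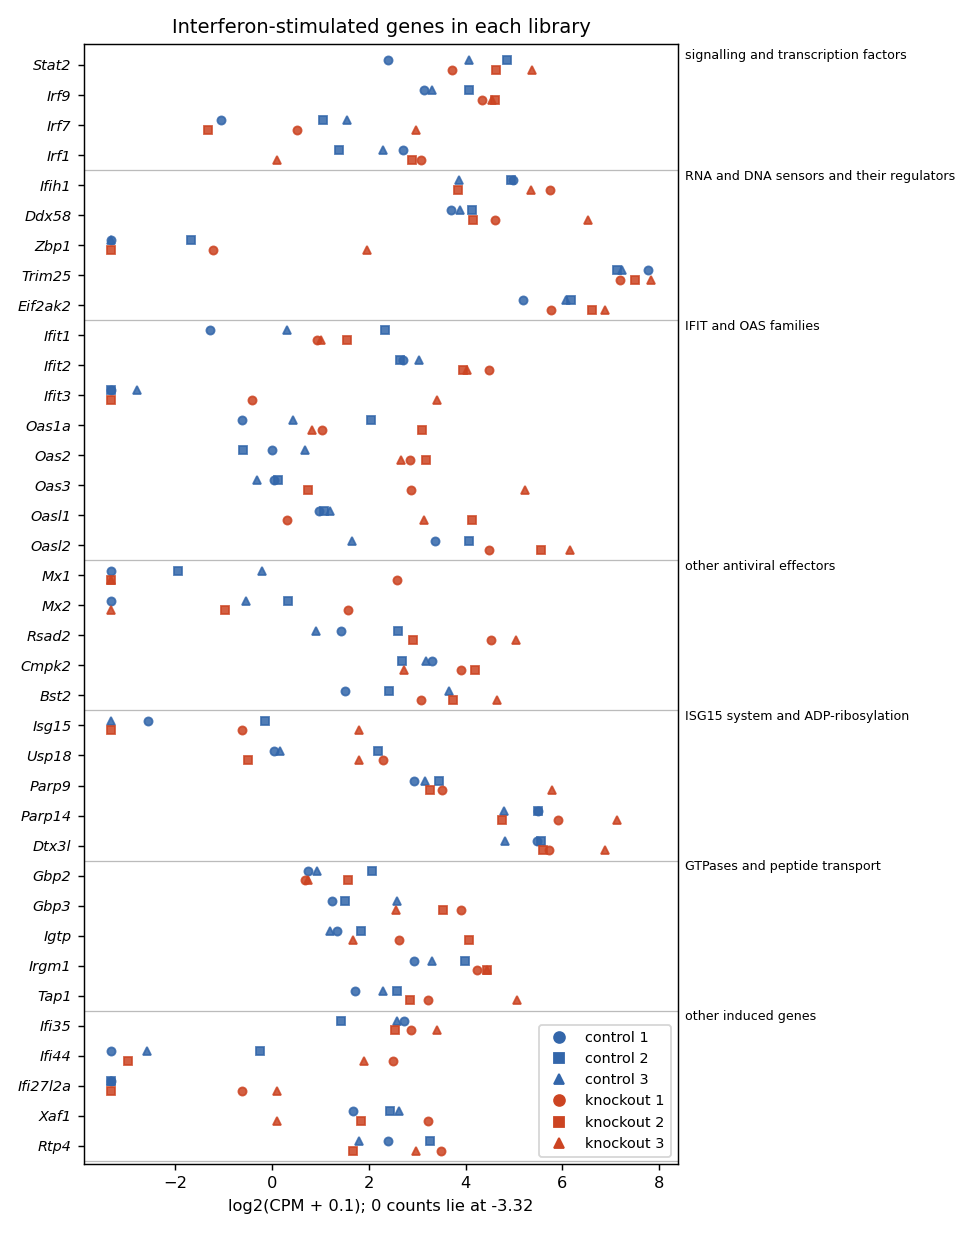
Level of each of the 37 interferon-stimulated genes in each library as log2(CPM + 0.1) on the x axis, grouped by role (right); colour gives the genotype and shape the litter. Oas2, Ifit2 and Irf9 show knockouts set together above the controls, whereas Ifit3, Isg15, Zbp1 and Ifi44 spread from 0 or nearly 0 counts to their highest values among the knockouts.

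All 5 members of the ISG15 system and of ADP-ribosylation had a positive log2 fold change (median 0.95), with 1 higher in litter 2 and 5 in each of the other litters. Isg15, a ubiquitin-like protein attached to other proteins, had 2, 30 and 0 counts in controls and 22, 0 and 118 in knockouts. In litter 2 the counts fell on the control side and in litters 1 and 3 on the knockout side, and the log2 fold change of 2.16 (SE 2.21) was -0.056 without knockout 3. Usp18, the protease that removes Isg15, was likewise lower in the knockout of litter 2 only, from 0.932 to 4.44 CPM in controls and at 4.81, 0.606 and 3.399 CPM in knockouts. Parp14 and Parp9 are ADP-ribosyltransferase family members, and Dtx3l is the ubiquitin ligase that pairs with Parp9. Dtx3l was at 44.3, 47.0 and 27.9 CPM in controls and 52.5, 48.4 and 118.5 CPM in knockouts (log2 fold change 0.88, SE 0.41; edgeR unadjusted p = 0.0657). Parp9 ranged from 7.56 to 10.8 CPM in controls and was at 11.3, 9.45 and 55.5 CPM in knockouts. Parp14 ranged from 27.6 to 45.3 CPM in controls and was at 60.4, 26.9 and 141 CPM in knockouts. In all 3 genes knockout 3 stood far above the other five libraries, and without it the log2 fold changes were 0.36, 0.20 and 0.16 in place of 0.88, 1.48 and 0.95. The Dtx3l and Parp9 genes overlap on opposite strands, and use of strand in counting is not given in the sources used here.

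Interferon gamma strongly induces the GTPases and the peptide transporter, of which 4 of 5 had a positive log2 fold change (median 1.55). Irgm1, a GTPase of pathogen vacuoles and of autophagy, was at 7.56, 15.7 and 9.80 CPM in controls and 18.7, 21.6 and 21.5 CPM in knockouts. Its knockouts were close to each other and above all controls (log2 fold change 0.90, SE 0.46; edgeR unadjusted p = 0.0825). Tap1, a subunit of the peptide transporter that loads MHC class I, was at 3.18, 5.86 and 4.79 CPM in controls and 9.26, 7.08 and 33.2 CPM in knockouts. There was no overlap (log2 fold change 1.84, SE 0.74; edgeR unadjusted p = 0.0379, adjusted p = 0.753), and the log2 fold change was 0.84 without knockout 3. Tap1 overlaps Psmb9 on the other strand, and Igtp overlaps Irgm2 on the same strand. Igtp and Gbp3 were highest in knockouts 1 and 2, with Igtp at 6.06, 16.8 and 3.085 CPM against 2.20 to 3.504 CPM in controls, and Gbp3 at 14.8, 11.5 and 5.80 CPM against 2.28 to 5.87 CPM. Gbp2, of the same guanylate-binding family, had 1.59, 4.07 and 1.81 CPM in controls and 1.51, 2.89 and 1.57 CPM in knockouts. It was the member with the lowest log2 fold change, -0.32 (SE 1.00), which was 0.23 without control 2.

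Of the other 5 induced genes, 4 were tested and 3 had a positive log2 fold change (median 0.47). Ifi44 had 0, 28 and 3 counts in controls and 222, 1 and 128 in knockouts. The log2 fold change of 3.48 (SE 2.09; edgeR unadjusted p = 0.135) rested on knockouts 1 and 3. Ifi27l2a had 0 counts in every control and 22, 0 and 34 in knockouts. The knockout mean was 6.05-fold the level of 3 counts per control library, a level that allows for counting error only and not for the spread between libraries. Xaf1, a gene of apoptosis control, was at 3.07, 5.35 and 6.03 CPM in controls and 9.28, 3.47 and 0.971 CPM in knockouts. Its knockouts enclosed the controls, and the log2 fold change of -0.07 (SE 0.97) was 0.19 when scaled by library size only. Ifi35 ranged from 2.59 to 6.49 CPM in controls and 5.76 to 10.5 CPM in knockouts, and Rtp4 from 3.38 to 9.49 and from 3.09 to 11.1 CPM.

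The knockouts differed in which members were highest. Knockout 3 held the highest value of the 6 libraries for 15 of the 33 tested members (background 25.6%), knockout 1 for 9 (15.6%), knockout 2 for 7 (18.6%) and control 2 for 2 (12.4%). The genes highest in knockout 3 included Stat2, Ddx58, Oas3, Parp9, Parp14, Dtx3l and Tap1, and those highest in knockout 2 included Oas2, Oasl1, Igtp and Irf9. Of the 37 members, knockout 2 had 5 at 0 counts (Ifit3, Zbp1, Mx1, Isg15 and Ifi27l2a), knockout 3 had 2 and knockout 1 had 0, where the controls had 6, 2 and 3. Per kilobase of exon, the members ranked alike at the top in both genotypes. Mean levels were highest for Trim25, at 29.4 CPM per kilobase in controls and 32.1 in knockouts, followed by Eif2ak2, Bst2, Dtx3l and Parp14. Oasl2 was the 16th member by level in controls and the 6th in knockouts, and Rsad2 was 25th and 9th.

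Upstream of these targets, the interferon genes themselves had few or no counts. Of 12 interferon genes listed, 10 had 0 counts in all 6 libraries, among them Ifnb1, Ifng and Ifna4. Ifnk had 4, 42 and 2 counts in controls and 17, 0 and 1 in knockouts, and Ifnab had 19 counts in knockout 1 and none elsewhere. These zeros allow up to 3 counts per library, counting error only. Reads with more than 1 alignment are tallied apart, so any near-identical interferon genes may also be under-counted. Both chains of the type I receptor overlapped between genotypes. Ifnar1 was at 40.3, 37.5 and 29.2 CPM in controls and 40.8, 34.2 and 27.8 CPM in knockouts (log2 fold change -0.06, SE 0.31), and Ifnar2 at 36.2, 47.9 and 65.7 CPM and 85.5, 38.9 and 14.9 CPM (log2 fold change -0.10, SE 0.57). Scaled by library size only, these were 0.18 and 0.15.

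Over the 46 listed genes of interferon production, receptors and signalling, 32 were tested. Of these, 26 had a positive log2 fold change (background 50.8%), with a median of 0.29, 3 were higher at an unadjusted p under 0.05 (background 4.26%) and 0 were lower (2.24%). With litter as a block 1 of them was, Stat3 (background 2.73%). At an adjusted p under 0.05, 0 were called by edgeR and 0 by DESeq2. The 3 were Stat3, a transcription factor of cytokine receptors, Samhd1, a nucleotide hydrolase that limits viruses, and Ifngr2, a chain of the interferon gamma receptor. Stat3 was at 41.5, 59.9 and 42.7 CPM in controls and 54.6, 87.3 and 161 CPM in knockouts (log2 fold change 1.07, SE 0.40; edgeR unadjusted p = 0.0286). Samhd1 was at 104, 125 and 106 CPM in controls and 184, 123 and 249 CPM in knockouts (0.73, SE 0.28), and Ifngr2 at 17.5, 15.5 and 11.7 CPM and 26.02, 18.7 and 59.7 CPM (1.22, SE 0.50). The phosphatase gene Ptpn2 (0.72, SE 0.40) and the feedback inhibitor gene Socs3 (2.90, SE 1.83) came next. Socs3 had 10, 20 and 79 counts in controls and 300, 452 and 0 in knockouts.

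A second list held 75 further interferon-stimulated genes, of which 73 were in the files and 64 were tested. Of the 64, 50 had a positive log2 fold change (background 50.8%) and 14 a negative one, with a median of 0.86. At least 2-fold higher were 20 (background 13.5%), and 3 were at least 2-fold lower (12.9%), Gbp5 (-2.72), Ifitm1 (-1.30) and Tor3a (-1.08). At an unadjusted p under 0.05 in edgeR, 11 were higher (background 4.26%) and 0 lower (2.24%), and 8 were higher with litter as a block (2.73%). In edgeR, and in DESeq2 without that block, 0 passed the adjusted threshold. In 14 every knockout lay above every control (6.39%). The 3 with the smallest p, named after their values were seen, were B2m, Rnf213 and Gbp7. B2m, the light chain of MHC class I, was at 200.3, 201 and 165 CPM in controls and 279.6, 314 and 501 CPM in knockouts (log2 fold change 0.95, SE 0.26; edgeR unadjusted p = 0.00687, adjusted p = 0.644). Rnf213, a large ubiquitin ligase, was at 109, 134 and 151 CPM and 225, 205 and 472 CPM (log2 fold change 1.20, SE 0.35), and DESeq2 with the litter block called it (adjusted p = 0.0292). That fit called 1 other gene of the list, the GTPase gene Iigp1 (adjusted p = 0.00852), where the background was 1.11%. Iigp1 had 29, 1 and 0 counts in controls and 8, 143 and 691 in knockouts, with overlapping groups (edgeR log2 fold change 4.55, SE 2.171). Gbp7 was at 36.6, 26.2 and 30.1 CPM and 56.3, 58.15 and 60.55 CPM (log2 fold change 0.91, SE 0.27).

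Macrophage markers were higher in the knockouts as well. Of 15 such markers, 14 were in the files, none of them at 0 in any library, and 12 of the 14 had a positive log2 fold change (background 50.8%), with a median of 1.95. At an unadjusted p under 0.05 in edgeR, 6 were higher (background 4.26%), and with litter as a block 7 were (2.73%). In 6 every knockout lay above every control (6.39%). DESeq2 called 3 of the 14 at an adjusted p under 0.05 (0.762%), as many as among the 33 members: C1qb (adjusted p = 0.00206), Csf1r (0.00729) and Lyz2 (0.00742). With the litter block DESeq2 called these 3 again, and also Marco (adjusted p = 0.00741) and Siglec1 (0.0231), where the background was 1.11%. Among the members that fit called Oasl2 and Rsad2. Csf1r, the receptor of macrophage growth factor, was at 8.91, 39.1 and 22.4 CPM in controls and 75.7, 92.4 and 141 CPM in knockouts, all above the controls. Within litters, 13, 10 and 13 of the 14 were higher in the knockouts of litters 1 to 3, with a median difference in log2 CPM of 1.69, 1.37 and 2.00. The summed level was 363, 612 and 418 CPM in controls and 915, 387 and 1816 CPM in knockouts. One marker, Mrc1, decided the place of knockout 2 in that sum, at 26.4 CPM there against 180 to 366 CPM in the other libraries. Without Mrc1 the sum was 183, 253 and 222 CPM in controls and 606, 360 and 1450 CPM in knockouts, all above the controls (left out after seeing the data). The median log2 CPM of the tested members was 1.69, 2.43 and 2.28 in controls and 3.22, 3.25 and 3.397 in knockouts, also all above the controls, against 3.27 to 3.42 over all genes tested. Siglec1, on the macrophage list, is itself known to be induced by interferon. The part of macrophage RNA in the members' levels was not tested.

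**Figure D4:**
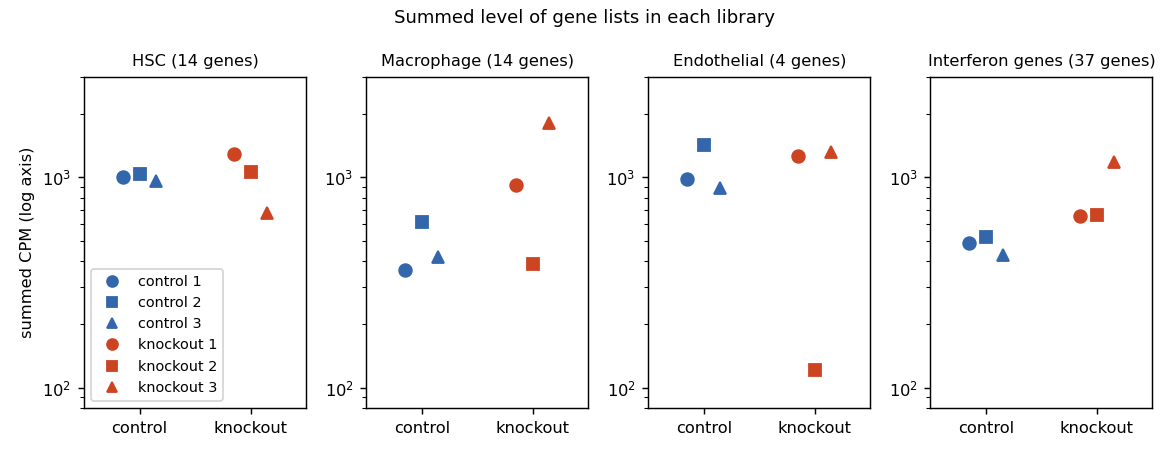
Summed CPM (log axis) of the HSC, macrophage and endothelial markers and of the 37 interferon-stimulated genes in each library. Macrophage markers are highest in knockouts 3 and 1, with knockout 2 placed among the controls by its low Mrc1, and the endothelial markers are lowest in knockout 2, while the summed interferon-stimulated genes are between 655 and 1184 CPM in the knockouts and between 428 and 522 CPM in the controls.

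The 8 neutrophil markers summed to 58.4 to 124 CPM in controls and 69.6, 148 and 393 CPM in knockouts. Of these, 6 were tested and all 6 had a positive log2 fold change (background 50.8%), with a median of 1.94. The median difference in log2 CPM was 1.23, 1.21 and 2.44 in litters 1 to 3. In edgeR, 1 was higher at an unadjusted p under 0.05 (background 4.26%), and 3 were with litter as a block (2.73%). DESeq2 called 0 at an adjusted p under 0.05, and with the litter block it called Elane (0.00102) and S100a8 (0.0125), where the background was 1.11%. The 4 endothelial markers summed to 889 to 1426 CPM in controls and to 1268, 121 and 1320 CPM in knockouts, with knockout 2 far below the rest. Plasmacytoid dendritic cells are the classic producers of type I interferon, and their 6 markers summed to 71.5 to 107 CPM in controls and 118, 82.0 and 152 CPM in knockouts. Most of that sum was Tcf4, at 62.5, 91.9 and 85.1 CPM in controls and 84.0, 65.0 and 110 CPM in knockouts. The sum therefore mainly follows that gene. The 3 markers tested all had a positive log2 fold change, 1.17 for Bst2 (also a member), 0.96 for Irf8 and 0.11 for Tcf4. Of these, 0 had an edgeR unadjusted p under 0.05. Ccr9 had 5, 55 and 0 counts in controls and 144, 0 and 7 in knockouts, Siglech had 7 counts in control 2 and 0 in the other libraries, and Ly6d was at 0 in all 6. T and NK markers summed to 0 to 5.99 CPM in controls and 3.35 to 15.7 CPM in knockouts, with Cd3e, Cd3g, Trac and Gzma at 0 in all 6. Nkg7, a gene of cytotoxic granules, had 0, 0 and 8 counts in controls and 43, 314 and 494 in knockouts, every knockout above every control (log2 fold change 6.89, SE 1.89; edgeR unadjusted p = 0.00656; DESeq2 adjusted p = 0.00106). Klrb1c, the other tested gene of that list, had 0, 0 and 125 counts in controls and 86, 255 and 0 in knockouts (log2 fold change 1.69, SE 2.49; DESeq2 adjusted p = 0.0472 with the litter block). B markers summed to 1.69 to 5.56 CPM, hepatocyte markers to 1.56 to 19.8, erythroid markers to 598 to 2131 and megakaryocyte markers to 46.7 to 87.8. The genotypes overlapped in these sums, but not in every gene. Of 7 erythroid markers, 4 had a positive and 3 a negative log2 fold change. Slc4a1 and Klf1 were lower in all 3 litters (background 15.9%). DESeq2 with the litter block called Slc4a1 (-1.09, adjusted p = 0.0158; background 0.865%). Every knockout was above every control for Pf4 (6.39%), and below for Ppbp and Afp (7.74%). The share of reads outside annotated genes was 26.3% in knockout 1 and 12.5% to 19.6% in the other libraries. The part of these in the members' levels was not tested.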

How the data were processed

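The authors deposited raw counts per gene symbol, 1 list per sample, and the submitters' processing notes name CASAVA 1.8.4, TopHat2, Picard 1.126, HTSeq 0.6.0, DESeq 3.0, bedtools 2.17.0 and the build mm10, with no role or order. Each list closes with 5 tallies of unassigned reads, which were left out of the library sizes. Strand use, read length and annotation are not given in the sources used here. Reads with more than 1 alignment are tallied apart, so near-identical genes can be under-counted.

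Genes passing edgeR's filterByExpr were scaled with TMM factors. Genotypes were compared with edgeR's quasi-likelihood test (edgeR 4.0.16, R 4.3.3) over all 6 samples, with Benjamini-Hochberg adjustment over all genes and a threshold of 0.05. Each SE was derived from the fold change and its F statistic. P-values measure the spread between these samples. CPM uses the TMM sizes, and log2 CPM a prior count of 2. DESeq2 1.42.0, limma-voom (limma 3.58.1), a litter block, other scalings and filters, and leaving out each sample were the alternatives. The procedure was also run on simulated data, but with less spread between replicates than here (0.598 in controls and 0.997 in knockouts). That run therefore cannot show the power or the false calls at the spread of these samples. The labels give the litters that pair the samples. Deviations of same-litter samples correlated at -0.0752 to 0.00336, so no shared litter effect was seen. Coordinates are from GENCODE M21 (GRCm38) and RefSeq (GRCm38.p6). Every member is named, with values in each sample for members whose groups do not overlap, the 5 highest and 5 lowest log2 fold changes, and 7 chosen by role. One gene of the signalling list is not reported here. The members and lists were chosen with earlier results of these data known.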

Additional observations from a re-analysis of the deposited data

How the results depend on the processing

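The number of genes past the threshold was 0 in the main test and 0 in each fit that left out 1 sample (range 0 to 0), 139 by DESeq2, 270 by DESeq2 with the replicate block (an alternative chosen after seeing the data), 1 without a filter on low counts and 1 with at least 10 counts in every sample. For the interferon-stimulated genes it was 0, 3 by DESeq2 and 2 with its replicate block, and 0 to 0 when single samples were left out. The number of members at an unadjusted p under 0.05 was 7, 3 with the replicate block in edgeR, 13 by DESeq2 (6.15% of all genes tested were higher at that threshold, against 4.26% in edgeR) and 4 to 12 when single samples were left out. The members' median log2 fold change was 0.95, 0.97 with the replicate block, 0.73 to 1.59 when single samples were left out (the highest without control 2), and positive under all 16 alternatives. DESeq2 moved Oas2 (2.94), Oas3 (4.16) and Rsad2 (2.63) past the threshold, and its replicate block Rsad2 (2.66), Oasl2 (2.30), Rnf213 (1.12) and Iigp1 (6.83). Signs turned for Irf1 (-0.052 with the replicate block, -0.037 with that of DESeq2 and -0.039 by limma-voom), Mx2 (-1.13 and -1.34 with the 2 replicate blocks), Trim25 (-0.0098) and Ifit1 (-0.076) under upper-quartile scaling, and Xaf1 (0.19), Ifnar1 (0.18) and Ifnar2 (0.15) under scaling by library size only. Scaling by library size only moved the median of all genes to 0.23 and that of the members to 1.10, and upper-quartile scaling to -0.10 and 0.83. When single samples were left out, signs turned for Irf7 (-1.06 to 1.41), Irf1 (-0.13 to 0.79), Trim25 (-0.040 to 0.35), Ifit1 (-0.48 to 1.59), Oas1a (-0.093 to 2.1697), Mx2 (-1.46 to 1.89), Isg15 (-0.056 to 5.16), Usp18 (-0.094 to 1.59), Gbp2 (-0.69 to 0.23), Xaf1 (-1.11 to 0.42), Rtp4 (-0.15 to 0.78), Ifnar1 (-0.20 to 0.085) and Ifnar2 (-0.89 to 0.33). The cause was not tested. Under the alternatives other than leaving out samples, the sign changed in 8 fits over 5 members. Members such as Isg15 and Mx1 had few or no counts in some libraries and more in others. In knockouts 1 to 3, Mx1 had 234, 0 and 0 counts and Isg15 had 22, 0 and 118. The gene counts of these libraries came to 31897700, 36679300 and 34718800. Whether depth limits these members was not tested.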

Other observations

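A list of 8 genes that silence endogenous retroviruses was followed too. Of these, 4 had a positive and 4 a negative log2 fold change, with a median of -0.04, and 0 had an edgeR unadjusted p under 0.05. Trim28, a corepressor of retroviral silencing, was at 113.4, 115 and 136 CPM in controls and 90.85, 112.6 and 56.8 CPM in knockouts. Every knockout was below every control (background 7.74%; log2 fold change -0.49, SE 0.29), but knockout 2 only marginally below control 1. Mphosph8, of the HUSH silencing complex, was at 41.6, 29.4 and 48.1 CPM in controls and 49.7, 51.5 and 58.4 CPM in knockouts, every knockout above every control (background 6.39%; log2 fold change 0.42, SE 0.29). Setdb1, Dnmt1, Uhrf1, Atrx, Daxx and Morc3 overlapped between genotypes.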
